A study of Mus musculus with 12 samples.

Results

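Glycolysis turns glucose into pyruvate and, where pyruvate is reduced, into lactate. The genes described here are 10 that serve it. Slc2a1 encodes the glucose transporter GLUT1, Hk1 and Hk2 are hexokinase genes, Pfkl and Pfkp phosphofructokinase genes, and Pfkfb3 is a regulator. Aldoa, Tpi1 and Pgk1 serve later steps, and Ldha encodes the A subunit of lactate dehydrogenase. The 10 genes were taken by symbol, with earlier results of these data known. For a symbol on more than 1 gene identifier the row with the higher mean was taken. All 10 were found among the 55421 genes of the deposited tables, and all 10 were among the 14721 genes abundant enough to be tested.

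Glucose enters a cell through transporters such as GLUT1 and is trapped by phosphorylation, the step that hexokinases carry out. Phosphofructokinase then commits the sugar to breakdown, under the control of fructose 2,6-bisphosphate, which enzymes of the PFKFB family make and remove. Aldolase, triose phosphate isomerase and phosphoglycerate kinase act further down, and lactate dehydrogenase returns the cofactor NAD+ that glycolysis uses up. Melanoma cells, like many tumour cells, keep this pathway active when oxygen is present, and many of its genes are known targets of the hypoxia-inducible factors and of Myc.

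RNA was measured in B16F10 cells, a pigmented mouse melanoma line. Vector control cells (VC) and cells in which Bub1, a kinase of the mitotic spindle checkpoint, was targeted with CRISPR-Cas9 (Bub1KO) were measured with and without a dose of 8 Gy. This makes 4 groups: untreated VC, untreated Bub1KO, irradiated VC and irradiated Bub1KO, with 3 libraries each and all grown in DMEM with 10% fetal bovine serum. The sources used here do not give the time from irradiation to RNA extraction, the guide or the number of Bub1KO clones. Nothing says that the libraries of 1 group came from different cultures, and the p-values therefore measure the spread between these libraries, which may be technical.

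The libraries held 19380726 to 33087366 reads in genes. Bub1 RNA was lower but present in the Bub1KO libraries, at 1565 to 1834 normalized counts against 2752 to 3185 in untreated VC, and at 886.4 to 1120 against 1461 to 1507 after irradiation. Replicate 1 of untreated Bub1KO stood apart from its group: its log2 values differed from the mean of the other 2 libraries with an SD of 0.51 over genes, against 0.243 to 0.38 in the other 11 libraries, and GC-rich genes were lower in it than GC-poor genes by a median of 0.936 on the log2 scale. It was the lowest of its group for 5 of the 10 genes (Slc2a1, Pfkl, Aldoa, Tpi1 and Ldha). Several of the results that rest on it are given with and without it. The 7 melanocyte lineage markers were all present, and their summed normalized counts were 386911 to 404327 in untreated VC, 542890 to 552089 in untreated Bub1KO, 430616 to 445913 in VC after 8 Gy and 555547 to 578932 in Bub1KO after 8 Gy. Dct was the largest part, with means of 169287 in VC and 269057 in Bub1KO after 8 Gy. Pmel, Mlana and Tyr were also higher in irradiated Bub1KO than in irradiated VC. The means of Tyrp1, Mitf and Sox10 were lower there (97145, 11720 and 8392 against 104998, 12637 and 10013), with overlapping libraries. The 7 leukocyte and macrophage markers summed to between 27.2 and 287.9. Their sum was higher in irradiated libraries and highest in irradiated Bub1KO. Cd68 and Lyz2 carried it, with the other 5 under 10 in all 12 libraries and Adgre1 and Cd3e at 0. The 7 fibroblast and endothelial markers summed to 69.3 to 82.6 in irradiated libraries and 85.5 to 157.4 in untreated ones. Pdgfra was the largest part and was lower after irradiation (means of 115.7 and 42.07 in VC, 84.84 and 38.55 in Bub1KO). Col1a1 went the other way (6.051 and 25.04 in VC, 6.256 and 24.65 in Bub1KO). The 5 epithelial markers summed to 121.8 to 133.4 in irradiated Bub1KO and to 57.2 to 101.7 elsewhere. Cdh1 made up nearly all of this sum, the other 4 being under 10 in all 12 libraries. All 4 sums thus moved with the groups, and their part in the results below was not tested. In cultures measured in bulk, fewer cells of a type and less RNA per cell cannot be told apart.

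The upstream sequences of 4 of the genes are shown, all 4 higher in irradiated Bub1KO than in irradiated VC. The pathway is a textbook target of factors that read short motifs, whose part in these data was not tested. Hypoxia-inducible factors bind a core of ACGTG or GCGTG, and Myc and the glucose-responsive factors of the Mondo family bind the E-box CACGTG, which holds ACGTG on both strands. Each stretch is the 120 bases, within the 250 before a RefSeq start (GRCm38.p6), that hold the most motif letters, so the stretches were placed to bring the motifs into view. Counted from the start, they run from -150 to -31 for Pgk1, -145 to -26 for Ldha, -136 to -17 for Pfkp and -120 to -1 for Hk2. Each is written 5′ to 3′ on the gene's strand, with the motif letters on either strand in capitals (CACGT is ACGTG and CACGC is GCGTG on the other strand). Pgk1 is at chrX:106186950-106187069 (plus strand), Ldha at chr7:46845659-46845778 (plus strand), Pfkp at chr13:6648788-6648907 (minus strand) and Hk2 at chr6:82774455-82774574 (minus strand), and none of the 4 stretches overlaps an exon annotated in GENCODE M21.
Pgk1: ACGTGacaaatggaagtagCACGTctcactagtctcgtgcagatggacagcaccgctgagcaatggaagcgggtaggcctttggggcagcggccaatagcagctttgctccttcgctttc
Ldha: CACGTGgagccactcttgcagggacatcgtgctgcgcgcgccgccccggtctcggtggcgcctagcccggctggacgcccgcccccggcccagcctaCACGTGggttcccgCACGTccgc
Pfkp: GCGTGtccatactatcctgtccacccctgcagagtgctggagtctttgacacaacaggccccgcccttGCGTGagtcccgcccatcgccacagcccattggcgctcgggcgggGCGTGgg
Hk2: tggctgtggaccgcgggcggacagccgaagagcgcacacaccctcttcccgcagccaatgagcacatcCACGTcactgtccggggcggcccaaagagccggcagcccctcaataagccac

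In the RefSeq windows from 250 bases before to 50 after a start, ACGTG or GCGTG was found on either strand in 12 of the 15 windows of the members and in at least 1 window of 9 of the 10, Tpi1 being the exception. The same letters were in 43.8% of all 32851 windows of that length (ACGTG in 19.6%, GCGTG in 32.4%), and CACGTG, found for Ldha and Pfkfb3, was in 7.15%. These shares are per window, and no share per gene was computed. Hk1, Pfkfb3, Aldoa and Ldha had more than 1 window, so the 9 of 10 cannot be set against the shares. Windows 2 and 3 of Aldoa overlap and hold the same site, counted in both. The letters are common, and they were present both in genes that rose in Bub1KO and in Hk1 and Pfkfb3, which did not. A match describes the sequence and is not a binding site.

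Set per kilobase of principal transcript, Ldha, Aldoa, Tpi1 and Pgk1 stood far above the genes of the entry steps. In untreated VC, the level was 23499 ± 675 normalized counts per kilobase for Ldha (SD, n = 3), 18358 ± 1172 for Aldoa and 16329 ± 1024 for Tpi1, the last 2 overlapping between libraries. Pgk1 followed at 6902 ± 643. The genes of the hexokinase and phosphofructokinase steps formed a lower tier, with Hk2 at 898 ± 15.4, Pfkp at 726 ± 47.5, Hk1 at 664 ± 57.8 and Pfkl at 597 ± 116 per kilobase, and the neighbours Pfkp and Hk1, and Hk1 and Pfkl, overlapped. Slc2a1 stood at 426 ± 25.6, and Pfkfb3, whose product makes a regulator and not a pathway intermediate, was the lowest at 142 ± 6.72. Together the 10 genes took 0.489% ± 0.0213 of the reads in untreated VC (SD, n = 3) and 0.492% ± 0.0165 in irradiated VC. In Bub1KO they took 0.598% ± 0.0686 untreated and 0.760% ± 0.0438 irradiated, and the lowest irradiated Bub1KO library, at 0.721%, lay above every other group's highest.

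**Figure D1:**
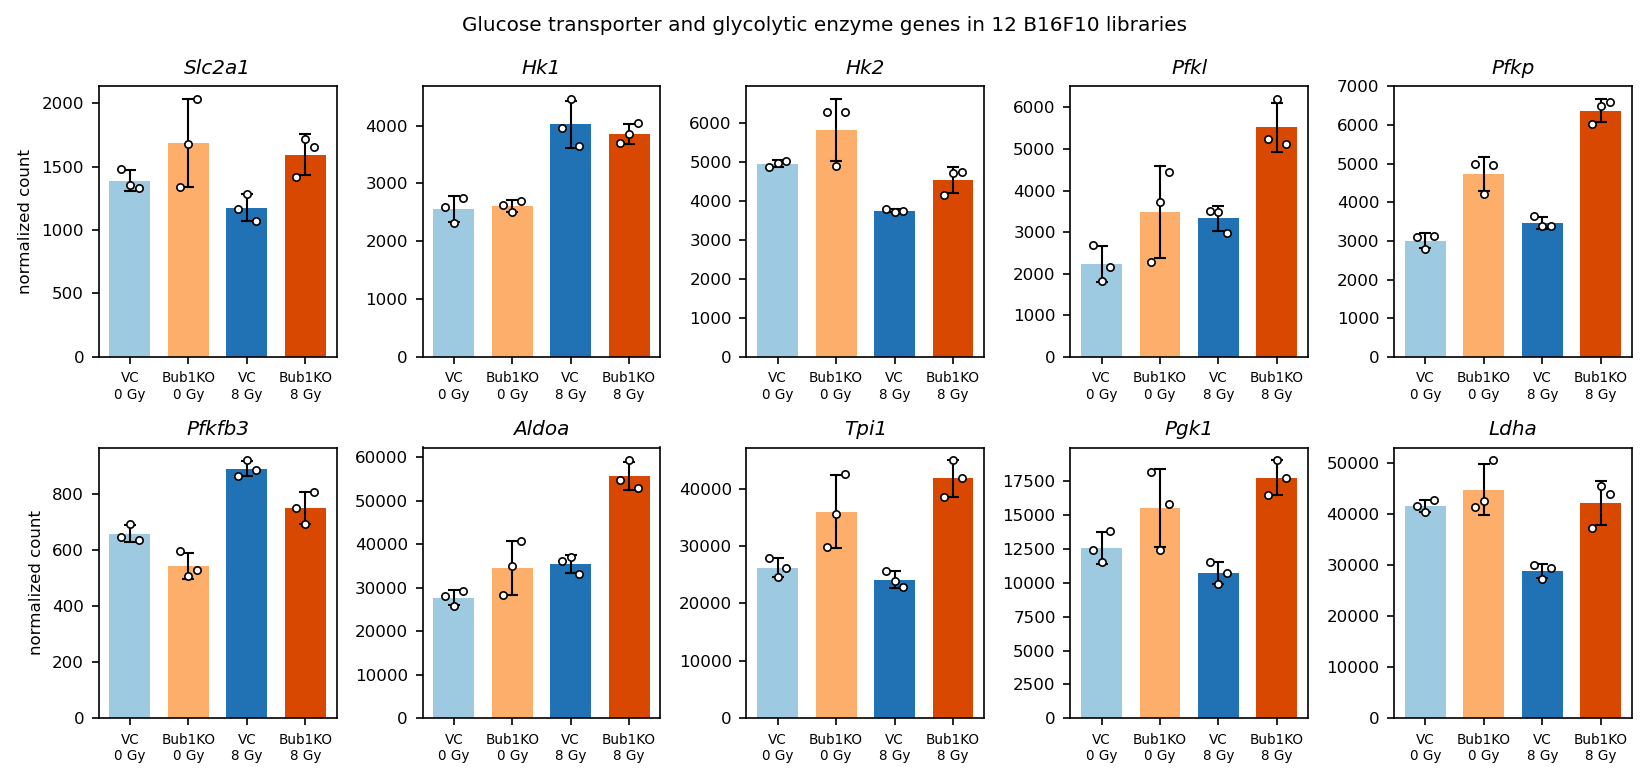
Normalized counts of the 10 genes in the 4 groups (x axis: genotype and dose in Gy). Bars are group means, error bars the SD of 3 libraries and circles the libraries; the irradiated Bub1KO circles of Pfkl, Pfkp and Aldoa lie above those of the other 3 groups, while Hk1 differs by dose and not visibly by genotype.

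The first comparison asked how the genotypes differed at each dose. After 8 Gy, 8 of the 10 genes were higher in Bub1KO than in VC (limma-trend, adjusted p under 0.05 over all genes tested): Slc2a1, Hk2, Pfkl, Pfkp, Aldoa, Tpi1, Pgk1 and Ldha, while Pfkfb3 was lower and Hk1 did not pass. Of all 14721 genes tested, 14.3% were higher and 16.4% lower in that comparison. The median log2 change of the 10 was 0.60, against -0.01 over all tested genes. Without irradiation 1 of the 10, Pfkp, was higher and none was lower, where 2.31% of all genes were higher and 1.71% lower, and the median of the 10 was 0.27 against -0.01. In that untreated comparison 591 genes passed, and leaving out replicate 1 of untreated Bub1KO raised this to 2736 genes and the members called to 6, with Slc2a1, Pfkl, Aldoa and Tpi1 then higher beside Pfkp, and Pfkfb3 lower. Leaving out any of the other 5 libraries lowered the count of genes to between 172 and 301. Each result was recomputed in 14 alternative settings, 6 of which leave out 1 library, and the number of settings in which a call stood is given where it was fewer than 14.

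**Figure D2:**
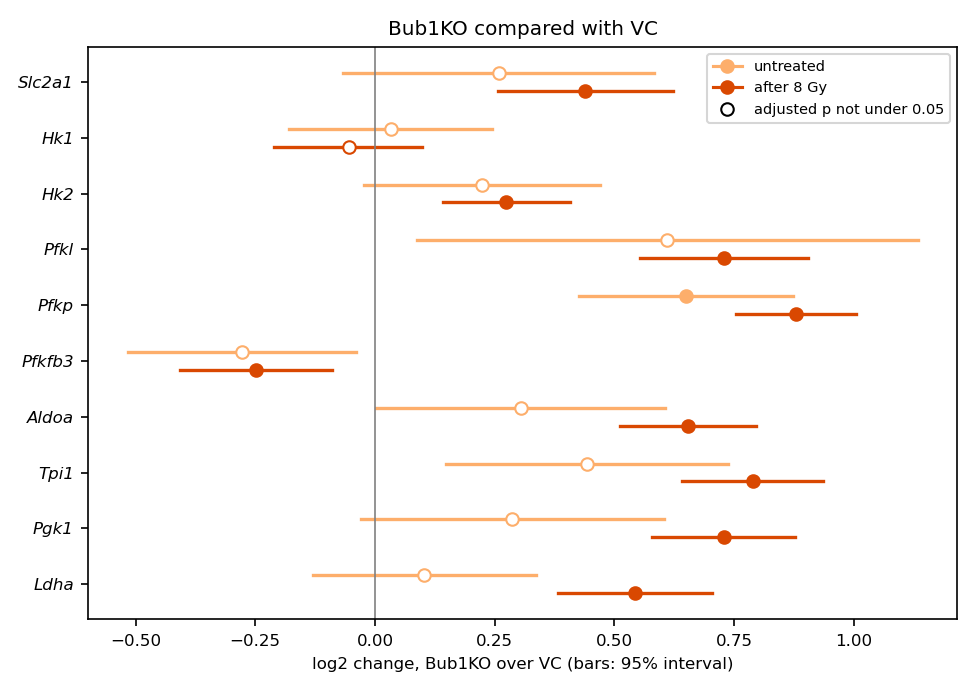
Log2 change of each gene in Bub1KO over VC (x axis), untreated and after 8 Gy, with 95% intervals. Filled circles have an adjusted p under 0.05: Pfkp alone is filled in the untreated cells, and all but Hk1 after 8 Gy.

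Slc2a1 (chr4:119108711-119137983, plus strand; gene positions are from GENCODE M21 on GRCm38, 1-based) imports the glucose. It was at 1484, 1353 and 1329 normalized counts in untreated VC and at 1341, 1675 and 2033 in untreated Bub1KO, where the low library is replicate 1. After irradiation it was at 1164, 1286 and 1074 in VC and at 1414, 1714 and 1654 in Bub1KO. The untreated groups overlapped and the irradiated groups did not. The log2 change was 0.26 ± 0.14 (SE) untreated with an adjusted p of 0.375 (limma-trend), and 0.44 ± 0.08 after irradiation with an adjusted p of 0.00195, or 1.36-fold. The irradiated call stood in 13 of 14 settings and missed without a filter on low values (adjusted p 0.0812), and the untreated one passed only without replicate 1 of Bub1KO (log2 0.41, adjusted p 0.013).

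The hexokinase genes differed from each other. Hk1 (chr10:62268855-62379908, minus strand) encodes the widely expressed isozyme and Hk2 (chr6:82725025-82774454, minus strand) the inducible one, and both enzymes can sit on the outer mitochondrial membrane. Hk1 stood at 3958, 4463 and 3650 in irradiated VC and at 3695, 3848 and 4044 in irradiated Bub1KO, groups that overlapped. Its genotype difference was 0.03 ± 0.09 (SE, log2) untreated and -0.06 ± 0.07 irradiated, with 95% intervals of -0.18 to 0.25 and -0.21 to 0.10, so that a change of the size seen in Pfkp lies outside both. Hk2 was at 4860, 4966 and 5027 in untreated VC and at 6269, 4899 and 6280 in untreated Bub1KO, where replicate 2 and not replicate 1 was the low library. Irradiated VC held 3786, 3714 and 3727 and irradiated Bub1KO 4143, 4724 and 4736. The Hk2 groups overlapped untreated and did not after irradiation, where the log2 change was 0.27 ± 0.06 (adjusted p 0.00482, limma-trend), the smallest of the 8 rises. That call stood in 12 of 14 settings, and missed with all 12 libraries in the fit (adjusted p 0.0598) and without the filter (0.0688).

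Both phosphofructokinase genes were higher in Bub1KO after irradiation. Pfkp (chr13:6579768-6648777, minus strand), which encodes the platelet-type subunit, was at 3111, 2784 and 3137 in untreated VC and at 4990, 4227 and 4968 in untreated Bub1KO. After irradiation the libraries were at 3635, 3383 and 3376 in VC and at 6033, 6489 and 6604 in Bub1KO. The genotypes did not overlap at either dose. It was the only member called in both comparisons, with a log2 change of 0.65 ± 0.10 (SE) untreated (adjusted p 0.00843, limma-trend) and 0.88 ± 0.06 irradiated (adjusted p 4.52e-07), or 1.57-fold and 1.84-fold. The irradiated call stood in every setting, and the untreated one in 11 of 14: it missed without VC replicate 1 (adjusted p 0.0504), without VC replicate 2 (0.0622) and without the filter (0.0722), at log2 changes of 0.67, 0.59 and 0.65.

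Whether reads were counted by strand is not stated, and 2 members share more than 100 bases of annotated exon with an expressed gene on the opposite strand. Pfkp shares 748 bases with Pitrm1, which encodes a mitochondrial peptidase and was not higher in Bub1KO: its log2 change was -0.16 untreated (adjusted p 0.341, limma-trend) and -0.27 irradiated (adjusted p 0.00758, in 13 of 14 settings). Hk1 shares 157 bases with its antisense gene Hk1os, which averaged 48.35 normalized counts and was higher in irradiated Bub1KO (log2 0.905, adjusted p 0.00173, in 14 of 14 settings) but not called untreated (0.18, adjusted p 0.692), where Hk1 was called at neither dose. Reads of such a pair cannot be told apart without strand. Pitrm1 and Hk1os are named after their values were seen.

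Pfkl (chr10:77986947-78010083, minus strand) encodes the liver-type subunit. It was at 2689, 1830 and 2156 in untreated VC and at 2275, 3735 and 4441 in untreated Bub1KO. Replicate 1 of Bub1KO thus lay within the VC range and the other 2 libraries above it. The untreated log2 change was 0.61 ± 0.23 with an adjusted p of 0.193 (limma-trend), and 0.89 with an adjusted p of 0.00168 without that library. Irradiated VC held 3508, 3495 and 2982 and irradiated Bub1KO 5234, 6204 and 5131, with no overlap and a log2 change of 0.73 ± 0.08 (adjusted p 3.73e-05).

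Pfkfb3 (chr2:11471433-11554077, minus strand), whose enzyme makes the fructose 2,6-bisphosphate that activates phosphofructokinase, went the other way. Its libraries were at 645.7, 692.7 and 633.8 in untreated VC and at 595.6, 505.1 and 528.6 in untreated Bub1KO. After irradiation they were at 864.6, 918.6 and 884.9 in VC and at 748.1, 693.7 and 807.8 in Bub1KO. The Bub1KO libraries lay below the VC libraries at both doses, without overlap. The log2 change was -0.28 ± 0.11 untreated (adjusted p 0.194, limma-trend) and -0.25 ± 0.07 irradiated (adjusted p 0.022), nearly the same size at both doses. The irradiated call stood in 9 of 14 settings: it missed without VC replicate 2 (adjusted p 0.0663), without Bub1KO replicates 1 (0.0529) or 2 (0.108), without the filter (0.0951) and with all 12 libraries in the fit (0.071).

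Aldoa (chr7:126795234-126800751, minus strand), the aldolase that splits fructose 1,6-bisphosphate, was at 28135, 25805 and 29279 in untreated VC and at 28233, 34891 and 40666 in untreated Bub1KO, and replicate 1 of Bub1KO lay among the VC libraries. After irradiation VC held 36120, 37037 and 33055 and Bub1KO 54714, 59269 and 52996. The irradiated groups were far apart, with a log2 change of 0.65 ± 0.07 (adjusted p 1.68e-05, limma-trend), against 0.31 ± 0.13 untreated (adjusted p 0.256; 0.44 with an adjusted p of 0.00686 without replicate 1). A second identifier with the same symbol never exceeded 7.74 normalized counts.

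Tpi1 (chr6:124810586-124814296, minus strand), which interconverts the 2 triose phosphates, was at 27925, 24637 and 26160 in untreated VC and at 29892, 35541 and 42569 in untreated Bub1KO, all of the latter higher. Irradiated VC held 25673, 23989 and 22775 and irradiated Bub1KO 38601, 44899 and 41759. The log2 change was 0.44 ± 0.13 untreated (adjusted p 0.103, limma-trend) and 0.79 ± 0.07 irradiated (adjusted p 4.85e-06). Although its untreated groups did not overlap, the untreated difference passed in 4 of 14 settings: with all 12 libraries in the fit (adjusted p 0.019), by DESeq2 (0.0436), with the GC trend removed (0.015) and without replicate 1 of Bub1KO (0.00239).

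Pgk1 (chrX:106187100-106203699, plus strand), the gene of the first ATP-yielding enzyme of the pathway, had the high untreated Bub1KO library in replicate 1, at 18201 normalized counts beside 12455 and 15860, where untreated VC held 12429, 11516 and 13845. After irradiation VC stood at 11563, 9890 and 10750 and Bub1KO at 16503, 19046 and 17759. The groups overlapped untreated (log2 0.29 ± 0.14, adjusted p 0.309, limma-trend) and not after irradiation (0.73 ± 0.07, adjusted p 1.04e-05).

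Ldha (chr7:46841475-46855627, plus strand) was the most abundant of the 10 per kilobase in untreated VC. It was at 41507, 40303 and 42688 normalized counts in untreated VC and at 41229, 42575 and 50441 in untreated Bub1KO, which overlapped. After irradiation VC held 29914, 27279 and 29383 and Bub1KO 37257, 45370 and 43858. All 3 irradiated VC libraries were below every other Ldha value. The log2 change between the genotypes was 0.10 ± 0.10 untreated (adjusted p 0.646, limma-trend) and 0.54 ± 0.07 irradiated (adjusted p 1.88e-04). The irradiated calls of Pfkl, Aldoa, Tpi1, Pgk1 and Ldha stood in all 14 settings, with log2 changes between 0.49 for Ldha and 0.84 for Tpi1 at the extremes.

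Annotated near-identical copies (at least 90% identity over at least 50% of the transcript) were found for Aldoa (3), Pgk1 (2) and Ldha (6). Their summed counts never exceeded 0.33% of the parent gene. How reads that map to several places were treated is not stated.

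In the authors' deposited table, which gives VC over Bub1KO, 4 of the 10 genes have an adjusted p under 0.05 without irradiation: Pfkl (-0.65, 0.0107), Pfkp (-0.65, 1.93e-11) and Tpi1 (-0.46, 0.002), higher in Bub1KO, and Pfkfb3 (0.28, 0.0423), lower. After irradiation the authors' deposited table has 8, all higher in Bub1KO, and Pfkfb3 misses with an adjusted p of 0.0521. Over all 55421 genes of each, the authors' deposited tables list 1829 untreated and 2533 irradiated at that threshold, in either direction. Their split by direction and the number of genes with an adjusted p are not given here. The 4 and 8 of 10 therefore have no share of all genes beside them.

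The effect of 8 Gy within each genotype was mixed among the 10 genes. In VC, Hk1, Pfkl, Pfkfb3, Aldoa and Pfkp rose and Ldha and Hk2 fell, where 27.6% of all genes rose and 25.8% fell. In Bub1KO the same 5 genes rose and Hk2 fell, where 25.4% of all genes rose and 23.9% fell. The counts of 5 risen and 2 or 1 fallen of 10 have to be read against those large shares of all genes. The median log2 change of the 10 was 0.04 in VC and 0.33 in Bub1KO, against 0.02 and 0.03 over all genes tested.

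The largest rise in VC was that of Hk1, from 2598, 2315 and 2754 normalized counts untreated to the irradiated values given above (log2 0.65 ± 0.09, adjusted p 2.81e-05, limma-trend on all 12 libraries). In Bub1KO it went from 2625, 2500 and 2703 to a level 1.48-fold higher (log2 0.57 ± 0.09, adjusted p 1.01e-04). Hk2 fell by 0.40 on the log2 scale in VC (adjusted p 0.00206) and by 0.35 in Bub1KO (adjusted p 0.00545). The hexokinase calls stood in all 20 alternative settings of these comparisons, 12 of which leave out 1 library.

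Pfkfb3 rose by nearly the same amount in both genotypes, 0.44 ± 0.09 in VC (adjusted p 8.04e-04) and 0.47 ± 0.09 in Bub1KO (adjusted p 5.30e-04), in all 20 settings. Pfkl rose by 0.59 ± 0.20 in VC (adjusted p 0.0209) and 0.71 ± 0.20 in Bub1KO (adjusted p 0.00825). Aldoa rose by 0.35 ± 0.11 in VC (adjusted p 0.0163) and 0.70 ± 0.11 in Bub1KO (adjusted p 1.53e-04), and Pfkp by 0.20 ± 0.08 (adjusted p 0.045) and 0.43 ± 0.08 (adjusted p 5.03e-04). In Bub1KO the rises of these 3 genes stood in all 20 settings, with Pfkl at log2 changes of 0.43 to 0.92. In VC they stood in 16, 16 and 12 of them: Pfkl missed without VC untreated replicates 2 (adjusted p 0.0956) or 3 (0.0564) or VC irradiated replicates 1 (0.064) or 2 (0.0624). Aldoa missed without VC untreated replicate 2 (0.068), without VC irradiated replicates 1 (0.0509) or 2 (0.059) and with the GC trend removed, where its log2 change was 0.05 (0.58). Pfkp in VC missed in 8 settings, up to an adjusted p of 0.176 without VC untreated replicate 2, at log2 changes of 0.15 to 0.23.

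Ldha fell in VC by 0.53 on the log2 scale (SE 0.09, adjusted p 3.46e-04, limma-trend), in all 20 settings, and all irradiated libraries were below all untreated ones. In Bub1KO its log2 change was -0.09 ± 0.09 (adjusted p 0.472), with an interval of -0.29 to 0.12, and the groups overlapped. Slc2a1, Tpi1 and Pgk1 did not pass in either genotype, with log2 changes of -0.24, -0.12 and -0.23 in VC and of -0.06, 0.23 and 0.21 in Bub1KO. Some settings called them: without replicate 1 of untreated Bub1KO, Slc2a1 (adjusted p 0.0301) and Pgk1 (0.0391) were lower in irradiated VC and Pgk1 was higher in irradiated Bub1KO (log2 0.34, 0.0118). Without replicate 2 of that group Pgk1 passed in VC (0.0488), and without replicate 3 Tpi1 passed in Bub1KO (log2 0.35, 0.0103). With the GC trend removed, Slc2a1 (-0.36, 0.00482) and Tpi1 (-0.22, 0.0343) were lower in irradiated VC, and with only the 6 VC libraries in the fit Slc2a1 (0.0199) and Pgk1 (0.0251) were.

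**Figure D3:**
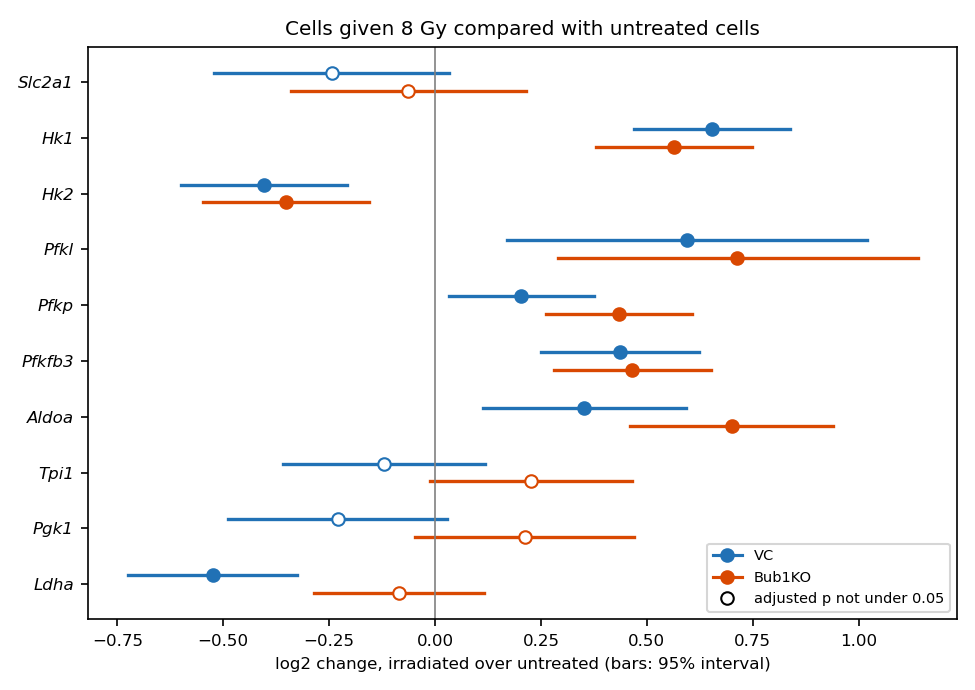
Log2 change of each gene after 8 Gy over untreated cells (x axis) in VC and in Bub1KO, with 95% intervals from the fit on all 12 libraries. Filled circles have an adjusted p under 0.05: Hk1, Pfkl, Pfkp, Pfkfb3 and Aldoa are filled on the right and Hk2 on the left in both genotypes, Ldha on the left in VC.

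Whether the genotype difference itself changed with the dose was tested by the interaction, that is the change from VC to Bub1KO in irradiated cells minus that in untreated cells. None of the 10 genes passed (limma-trend on 12 libraries), where 0.55% of all genes did (81 genes; 1784 at an unadjusted p under 0.05). The largest differences were those of Pgk1 (0.44 ± 0.17 SE, log2, adjusted p 0.302), Ldha (0.44 ± 0.13, adjusted p 0.179), Aldoa (0.35 ± 0.16, adjusted p 0.398) and Tpi1 (0.35 ± 0.16, adjusted p 0.398), all 4 with an unadjusted p under 0.05 and with intervals from just above 0 (Tpi1, 0.009) to 0.81 (Pgk1). The call of 8 genes after irradiation and 1 before it is therefore not shown to be a difference between the doses for any single gene. Without replicate 1 of untreated Bub1KO, Pgk1 passed (log2 0.57, adjusted p 0.0153) among 1447 genes, and with the GC trend removed Aldoa passed (log2 0.42, adjusted p 0.036). DESeq2 and edgeR on the recovered reads called none of the 10.

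The ratio of isozyme genes within a library does not depend on how libraries are scaled to each other. It can still shift with a GC trend of a library. Transcript GC content was 51.9% for Hk2 and 56.4% for Hk1, and 48.0% for Pfkp and 57.1% for Pfkl. The part of GC content in the ratios was not tested. The log2 ratio of Hk2 to Hk1 was 0.90, 1.10 and 0.87 in untreated VC and 1.26, 0.97 and 1.22 in untreated Bub1KO. After irradiation it was -0.06, -0.27 and 0.03 in VC and 0.17, 0.30 and 0.23 in Bub1KO. All 6 irradiated ratios lay below all 6 untreated ones. The ratio fell by 0.99 with irradiation (exact permutation test within genotype, two-sided p = 0.005, the smallest that the 400 arrangements allow, adjusted p 0.02 over 4 tests), and was higher by 0.26 in Bub1KO (exact p = 0.01, adjusted p 0.02). Per kilobase, Hk2 made up 57.5% ± 2.12 of hexokinase 1 and 2 transcripts in untreated VC (SD, n = 3) and 39.5% ± 2.48 in irradiated VC, and 60.7% ± 2.57 and 45.0% ± 1.13 in Bub1KO. The genotype difference missed the threshold without VC untreated replicates 1 (adjusted p 0.05) or 3 (0.06), without Bub1KO untreated replicate 1 (0.05) or without Bub1KO irradiated replicate 2 (0.05), in exact tests at differences of 0.23 to 0.25.

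The log2 ratio of Pfkp to Pfkl was 0.21, 0.61 and 0.54 in untreated VC and 1.13, 0.18 and 0.16 in untreated Bub1KO, where replicate 1 stood high. After irradiation it was 0.05, -0.05 and 0.18 in VC and 0.21, 0.07 and 0.36 in Bub1KO. The genotype difference of 0.10 (exact permutation p = 0.65, adjusted p 0.65) turned to -0.07 without that library. The irradiation difference of -0.34 had an exact permutation p of 0.075 (adjusted p 0.1), and it passed without Bub1KO untreated replicates 2 (-0.41, exact test, adjusted p 0.0467) or 3 (-0.42, 0.0467). Both of these fits keep replicate 1 of untreated Bub1KO. Without replicate 1 the irradiation difference was smaller in size than with all 12 libraries (value in the last section).

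**Figure D4:**
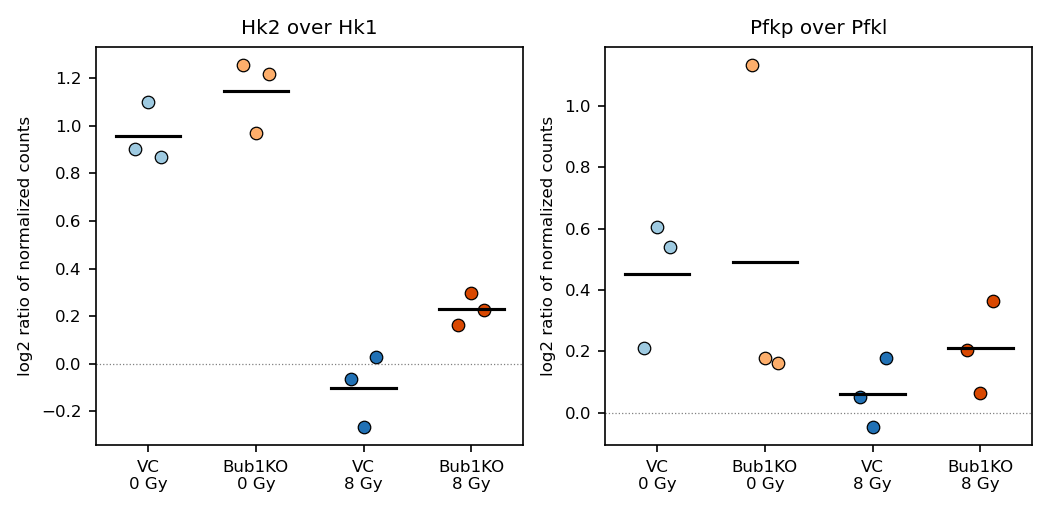
Log2 ratio of normalized counts of Hk2 over Hk1 and of Pfkp over Pfkl (y axes) in each library of the 4 groups, with group means as lines. The irradiated Hk2 to Hk1 ratios, from -0.27 to 0.30, lie below all untreated ones, and the highest Pfkp to Pfkl ratio, 1.13, is that of untreated Bub1KO replicate 1.

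The remaining genes of glycolysis differed between the irradiated genotypes much as the 10 did. Of 18 listed, 12 were abundant enough to be tested. In irradiated cells 11 of the 12 were higher in Bub1KO and 1 was lower, where 14.3% and 16.4% of all genes were. The lower gene was Adpgk (-0.18, limma-trend, adjusted p 0.0406), named because it was the exception. Its call stood in 5 of 14 settings and missed without any of the VC replicates or Bub1KO replicates 1 or 2 (adjusted p up to 0.183). The rise was largest for Aldoc, an aldolase isozyme gene, which went from 1309, 1125 and 1162 normalized counts in irradiated VC to 3145, 3354 and 3272 in irradiated Bub1KO (2.72-fold, adjusted p 2.07e-08, limma-trend). Gpi1, the isomerase between the hexokinase and phosphofructokinase steps, was 1.68-fold higher (adjusted p 1.40e-06), and Gapdh, often used as an unchanging reference gene, 1.54-fold (log2 0.62 ± 0.07, adjusted p 2.84e-05). Pkm (log2 0.50 ± 0.06, adjusted p 1.09e-04) and Eno1 (0.31 ± 0.06, adjusted p 0.00232) were also higher, Eno1 not with all 12 libraries in the fit (adjusted p 0.257) or without the filter (0.0574). The median of the 12 was 0.44.

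Without irradiation 1 of these 12 passed, Aldoc again, at 755.9, 694 and 727 in VC and 1346, 1432 and 1726 in Bub1KO (2.06-fold, adjusted p 0.00161, limma-trend). In that comparison 2.31% of all genes were higher and 1.71% lower. The Aldoc call stood in all 14 settings at both doses. Gapdh, Pkm and Eno1 had untreated log2 changes of 0.12, 0.14 and -0.10, and in all 3 replicate 1 of untreated Bub1KO was the lowest of the 12 libraries (74532, 67396 and 22709 normalized counts). Without that library Gapdh (0.31, adjusted p 0.0304) and Pkm (0.31, 0.0329) passed and Eno1 (0.19, 0.203) did not. With irradiation, Eno2, the neuronal enolase gene, rose from 27.3 to 33.5 normalized counts to 181.3 to 263.8 in VC (log2 2.77) and from 24.4 to 28.8 to 260.9 to 298.3 in Bub1KO (log2 3.33), while Eno1 did not pass in either genotype (it passed in VC with the GC trend removed, at -0.44, and in Bub1KO without untreated replicate 3, at 0.52). In all, 4 of the 12 rose with irradiation and 1 fell in VC, where 27.6% of all genes rose and 25.8% fell, and 6 rose and 1 fell in Bub1KO, where the shares were 25.4% and 23.9%. The 4 of 12 in VC is near the share of all genes.

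Other transport genes were next. Slc16a3, which encodes the lactate exporter MCT4, stood low at 43.9, 27.1 and 35.3 normalized counts in untreated VC and at 70.1, 71.6 and 90.6 in untreated Bub1KO (2.18-fold, adjusted p 0.0271, limma-trend, in 8 of 14 settings). The untreated call was lost without VC replicates 2 (adjusted p 0.11) or 3 (0.0847) and without Bub1KO replicates 2 (0.0714) or 3 (0.103), at log2 changes of 0.95 to 1.17. After irradiation it was at 54.0, 68.1 and 40.8 against 110.4, 124.4 and 108.2 (2.13-fold, adjusted p 6.82e-04, in 14 of 14). Bsg, the partner protein gene of the lactate transporters, was 1.37-fold higher in irradiated Bub1KO than in irradiated VC (limma-trend, adjusted p 5.85e-05). In the same comparison the glucose transporter gene Slc2a6 was lower in Bub1KO (log2 -0.35, adjusted p 0.0117). Slc2a6 missed without the filter (0.148) and with all 12 libraries in the fit (0.406). Of the 6 transport genes tested, 1 was higher in untreated Bub1KO than in VC, where 2.31% of all genes were. In irradiated Bub1KO, 2 were higher and 1 lower than in VC, where 14.3% and 16.4% of all genes were. The 1 lower of 6 is near the share of all genes.

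Pdk1, whose kinase shuts the pyruvate dehydrogenase complex off and so keeps pyruvate out of mitochondrial oxidation, was at 1007, 852.6 and 843 in untreated VC and at 2088, 1505 and 2024 in untreated Bub1KO. Irradiated VC held 1283, 1087 and 1109 and irradiated Bub1KO 2361, 2666 and 2841. The genotypes did not overlap at either dose, at 2.06-fold (adjusted p 0.00468, limma-trend) and 2.26-fold (adjusted p 7.49e-07). Without the filter the untreated call of Pdk1 missed (adjusted p 0.0876). Pdk2 and Pdk3 were higher in irradiated Bub1KO than in irradiated VC (log2 0.46 and 0.45), Pdk2 in 8 of 14 settings. Pdk2 missed without VC replicate 2 (log2 0.31, limma-trend, adjusted p 0.137) and without Bub1KO replicates 1 (0.106) or 2 (0.0882), among others. Among the 13 tested genes of pyruvate entry, 1 was higher and 1 lower in untreated Bub1KO (Pdp2, a phosphatase that acts against the kinases, -0.45). In irradiated Bub1KO, 5 were higher and 3 lower than in VC (all genes: 2.31% and 1.71% untreated, 14.3% and 16.4% irradiated). Pdp2 passed untreated in 8 of 14 settings and missed without any of the VC replicates or Bub1KO replicates 2 or 3 (adjusted p up to 0.166). Of the subunit and carrier genes, Mpc2 (log2 0.42, in 14 of 14 settings) and Pdhb (0.20, in 10) were among the higher and Mpc1 (-0.41, in 11) and Dld (-0.22, in 8) among the lower, names given after their values were seen. Pdhb was lost without VC replicates 1 or 3 or Bub1KO replicate 2 (adjusted p up to 0.0902), Mpc1 without VC replicate 2 or Bub1KO replicate 1 (up to 0.0916) and Dld without VC replicates 1 or 3 or Bub1KO replicates 1 or 2 (up to 0.125).

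In the pentose phosphate pathway, the branch that leaves glycolysis after hexokinase, 7 genes were tested. None passed between the untreated genotypes, where 2.31% of all genes were higher and 1.71% lower in Bub1KO. In irradiated Bub1KO 3 were higher than in VC, where 14.3% of all genes were. Their changes were small (Taldo1 0.26, Rpia 0.20 and Pgd 0.15, log2). These calls stood in 12, 8 and 4 of 14 settings: Rpia was lost without VC replicates 1 (adjusted p 0.106) or 3 (0.111) or Bub1KO replicates 1 (0.0506) or 2 (0.12), and Pgd without any 1 of the libraries but Bub1KO replicate 3 (up to 0.168). In gluconeogenesis, Pck2, the mitochondrial phosphoenolpyruvate carboxykinase gene, was the only 1 of 5 called between the untreated genotypes. It was at 750.9, 645 and 674.1 in VC and 1393, 2866 and 2147 in Bub1KO (2.97-fold, limma-trend, adjusted p 0.00557). The Pck2 call missed without VC replicate 2 (0.0509) and without the filter (0.125). Of all genes, 2.31% were higher in untreated Bub1KO. Pcx was the only 1 of 5 called between the irradiated genotypes, lower in Bub1KO (log2 -0.51, limma-trend, adjusted p 2.66e-04). The Pcx call missed with all 12 libraries in the fit (0.0799). The 1 lower of 5 is near the 16.4% of all genes that were lower there. Of 4 other tested genes that set fructose 2,6-bisphosphate, only Pfkfb4 was called between the irradiated genotypes. Pfkfb4 was higher in Bub1KO (log2 0.33, limma-trend, adjusted p 0.0273, in 8 of 14 settings), where Pfkfb3 was lower. Of all genes, 14.3% were higher there. The Pfkfb4 call missed without VC replicates 2 (adjusted p 0.087) or 3 (0.0573) and without Bub1KO replicates 2 (0.0843) or 3 (0.0569), among others. Of 6 listed copies of the members, testis or sperm genes and the Pgk1 pseudogene Pgk1-rs7, 2 were abundant enough to be tested. These were Aldoart1 and Pgk1-rs7, both among the near-identical copies above, and neither passed in any comparison.

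**Figure D5:**
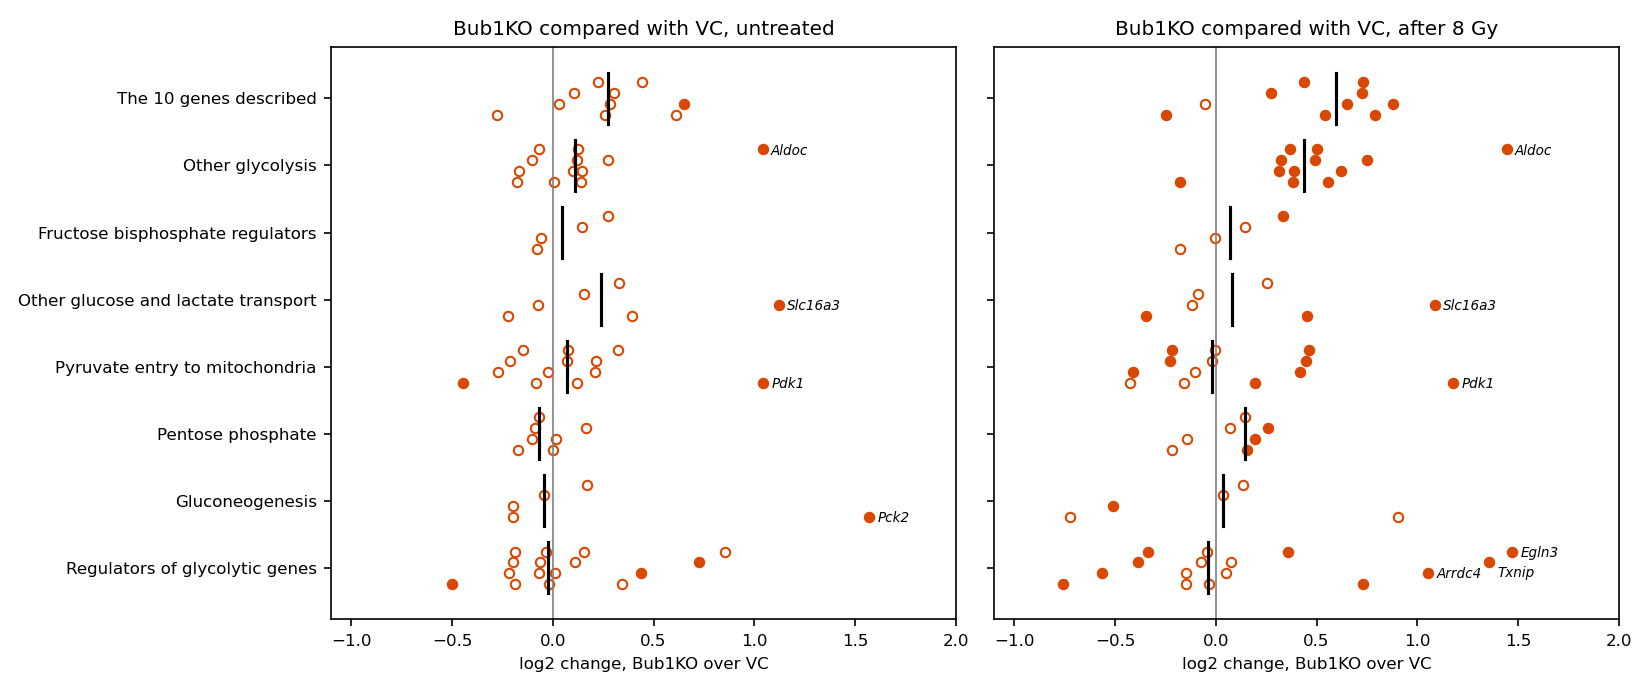
Log2 change in Bub1KO over VC (x axes) of the 10 genes and of the tested genes of 7 related lists, untreated (left) and after 8 Gy (right). Each circle is a gene, filled where its adjusted p is under 0.05, and black lines are medians, 0.60 for the 10 genes and 0.44 for other glycolysis after 8 Gy.

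Regulators of glycolytic genes were called in both directions. Of 16 tested, 2 were higher and 1 lower in untreated Bub1KO than in VC, where 2.31% and 1.71% of all genes were. In irradiated Bub1KO 5 were higher and 4 lower than in VC, where 14.3% and 16.4% of all genes were. The irradiated median log2 change was -0.04, against -0.01 over all genes. Hif1a, the oxygen-regulated subunit, stood at 2052, 2486 and 2542 in irradiated VC and at 2021, 1512 and 2099 in irradiated Bub1KO (log2 -0.34 ± 0.11, adjusted p 0.0356, limma-trend, in 9 of 14 settings), groups that overlapped. The call was lost without VC replicates 2 (-0.30, adjusted p 0.0888) or 3 (-0.28, 0.0979), without Bub1KO replicate 2 (-0.19, 0.158), without the filter (0.308) and with all 12 libraries in the fit (0.2). Myc was lower in Bub1KO at both doses, at 1783, 1727 and 1794 against 1158, 1272 and 1327 untreated (log2 -0.50, adjusted p 0.0173, in 9 of 14 settings) and at 1384, 1496 and 1380 against 837.9, 857.5 and 823.5 irradiated (log2 -0.76, adjusted p 4.18e-06). Its untreated call was lost without VC replicates 1 (adjusted p 0.115), 2 (0.082) or 3 (0.0774) and without Bub1KO replicate 2 (0.0632), at log2 changes of -0.49 to -0.52. The prolyl hydroxylase genes Egln1 and Egln3 encode enzymes that mark hypoxia-inducible factors for destruction, and are themselves hypoxia targets. Both genes were higher in irradiated Bub1KO than in irradiated VC. Egln3 was at 155.8, 156.7 and 166 against 61.1, 49.9 and 60.1 in VC (2.77-fold, limma-trend, adjusted p 8.14e-06). Egln2 was lower in irradiated Bub1KO (log2 -0.57, in 12 of 14 settings). Its call missed with all 12 libraries in the fit (adjusted p 0.145) and without the filter (0.0634). In the same comparison Vhl was higher (0.36) and Trp53 lower (-0.39) in Bub1KO, both in 14 of 14 settings. These and Egln2 are named after their values were seen.

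Txnip encodes an arrestin-like protein that restrains glucose uptake and is induced by glucose-derived sugar phosphates. It was at 969.8, 1095 and 1023 in untreated VC and at 1564, 1823 and 1723 in untreated Bub1KO, and after 8 Gy at 2354, 2326 and 2063 in VC and at 5552, 5772 and 5901 in Bub1KO. The groups were separate throughout, with 1.65-fold (adjusted p 0.00486, limma-trend) and 2.56-fold (adjusted p 2.07e-08) differences between the genotypes. Its paralogue Arrdc4 was 2.07-fold higher in irradiated Bub1KO than in irradiated VC (limma-trend, adjusted p 8.44e-05).

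The 3 members with the widest range of group means were Pfkl (1.32 on the log2 scale), Pfkp (1.08) and Aldoa (1.005). Over the 12 libraries, the tested genes whose log2 values followed them most closely were Cdc42ep4, Slc4a8 and Ndufv3 for Pfkl (Pearson r of 0.972, 0.969 and 0.964), Pdk1, Bnip3 and Epm2a for Pfkp (0.989, 0.986 and 0.981), and Thra, Ndufv3 and Tubb4a for Aldoa (0.987, 0.983 and 0.981). These values describe the 12 libraries, which share 4 groups and their depth. Pdk1 and Bnip3 are known hypoxia-responsive genes, a background fact that the likeness does not test.

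The deviations from the group means showed which members varied together among libraries of a group. Pfkl, Aldoa, Tpi1 and Slc2a1 varied together (r of 0.85 to 0.92 between pairs over 12 libraries), as did Pfkp, Pgk1 and Hk2 (0.81 to 0.88), with r of 0.07 between Pfkl and Pfkp. Over the 10 genes, the deviation of replicate 1 of untreated Bub1KO ran against transcript GC content (r of -0.74 over 10 genes, a description): it was -0.84 on the log2 scale for Pfkl, with a GC content of 57.1%, and 0.37 for Pgk1, with 49.7%. These values stand beside the untreated results. The part of GC content in them was tested only by the fit with the GC trend removed. In it 4 members were called (Pfkl, Pfkp, Aldoa and Tpi1, all higher). The calls over all genes rose in that fit as well, above the 591 of the main fit (count in the last section).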

How the data were processed

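RNA-seq of 12 libraries, 3 in each of 4 groups taken from the genotype and treatment labels, was used. Per the submitters' processing notes the reads went through Trim Galore, cutadapt, STAR, SAMtools and HTSeq on GRCm38.p6 (mm10), with no versions. The annotation release was not given in the sources used here, nor was the use of strand in counting. The authors deposited 2 tables of 55421 genes with a non-negative signal per library: read counts divided by 1 size factor per library (0.775 to 1.41), the same scale in both tables. The deposited tables also hold the authors' own results: log2 fold changes (VC over Bub1KO), a test score and p-values, plain and adjusted. Whole reads were recovered for 100.0% of values (tolerance 0.01 of a read), 19380726 to 33087366 per library.

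The test was limma-trend (limma 3.58.1, R 4.3.3) on log2(value + 1), a scale that understates changes of low genes, for genes that reached 10 in 3 or more libraries, with Benjamini-Hochberg adjustment over 14721 genes and a threshold of 0.05. Genotypes were compared on their own 6 libraries, irradiation and the interaction on all 12. Isozyme ratios had an exact permutation test. The code was tested on simulated data. Alternatives were pseudocounts of 0.5 and 10, no filter, edgeR 4.0.16 and DESeq2 1.42.0 on recovered reads, the other number of libraries, the replicate number as a block, the GC trend removed, and each library left out. Copies were sought with blastn against GENCODE M21, whose gene identifiers matched 55240 of those in the tables without their version, and promoter windows came from RefSeq (GRCm38.p6) and matched all 10 genes. Genes beyond the 10 are named by a rule: at most 3 called genes per list and comparison with the largest change, plus Gapdh, Pkm, Eno1, Txnip, Hif1a and Myc, with exceptions marked. The 10 genes and the lists were chosen with earlier results of these data known.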

Additional observations from a re-analysis of the deposited data

Results flagged for a closer look

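For 3 genes of the related lists, the Bub1KO minus VC difference after irradiation differed from that without it by the interaction test (limma-trend on 12 libraries). Egln3, a prolyl hydroxylase gene, had a difference larger by 1.13 on the log2 scale after 8 Gy (1.131 ± 0.229 SE, adjusted p 0.0446): it stood at 155.8 to 166 normalized counts in irradiated Bub1KO and 115.2 to 174.8 in untreated Bub1KO, and at 49.9 to 61.1 in irradiated VC and 108.4 to 134.8 in untreated VC. Txnip, which restrains glucose uptake, had a difference larger by 0.63 (SE 0.112, adjusted p 0.0216), with values higher in Bub1KO at both doses. Pck2, the mitochondrial phosphoenolpyruvate carboxykinase gene, had a difference of -1.53 (SE 0.269, adjusted p 0.019): untreated Bub1KO held 1393 to 2866 against 645 to 750.9 in VC, and the irradiated genotypes overlapped, at 1484 to 1926 against 1531 to 1625. The call of Egln3 stood in 7 of 19 alternative settings (adjusted p up to 0.14), that of Txnip in 11 (up to 0.0765) and that of Pck2 in 12 (up to 0.0709). Without Bub1KO irradiated or VC irradiated libraries, 1 at a time, Egln3 missed in all 6 fits (0.0871 to 0.14), Txnip in all 6 (0.0556 to 0.0765) and Pck2 in 4 (0.063 to 0.0709). Egln3 also missed without any VC untreated library or Bub1KO untreated replicates 2 or 3, Txnip and Pck2 without VC untreated replicates 2 or 3.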

How the results depend on the processing

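Of 870 results of the 10 genes under the alternatives, 809 kept their direction and their side of the threshold, 27 lost the call, 21 gained it and 13 turned, and the cause was not tested. Genes called untreated (591) became 329 without the filter, 1769 with all 12 libraries, 1690 with the GC trend removed and 172 to 2736 with 1 library left out, and members called (1) became 0, 2, 4 and 0 to 6, and 2 by DESeq2. The 4 members called with the GC trend removed have to be read against those 1690 of 14721 genes. Genes called between the irradiated genotypes (4512) became 2062 without the filter and 2105 with all 12 libraries. Members called for irradiation in VC (7) ranged from 4 (without VC untreated replicate 2 or VC irradiated replicates 1 or 2) to 9 with 1 library left out. Interaction genes (81) became 283 by DESeq2, 418 with the GC trend removed and 33 to 1447 with 1 library left out, and members called (0) became 1 with the GC trend removed and 0 to 1. The values 2736, 6, 9 and 1447 are those without replicate 1 of untreated Bub1KO, 172 is that without VC untreated replicate 2 and 33 that without VC irradiated replicate 1. Replicate numbers did not pair the libraries: deviations of same-numbered libraries correlated at -0.193 to 0.196, and 2 of 12 libraries were closest to 1 of their own number. With the replicate number as a block, 312 genes were called untreated and 47 in the interaction. The block changed no call of the 10 genes, and ended those of Slc16a3, Myc, Egln1 and Pdp2 untreated, of Rpia, Pgd and Adpgk irradiated and of Pck2 in the interaction. With 1 library left out, log2 changes that turned ran from -0.037 to 0.089 for Hk1, -0.305 to 0.185 for Eno1 and -0.014 to 0.309 for Gapdh untreated, -0.123 to 0.022 for Hk1 irradiated, -0.216 to 0.084 for Slc2a1 and -0.142 to 0.004 for Ldha with irradiation in Bub1KO, and, in the interaction, -0.068 to 0.115 for Hk2, -0.16 to 0.322 for Pfkl and -0.026 to 0.097 for Pfkfb3, which was -0.006 with the GC trend removed. No gene named here passed with its sign turned. The isozyme differences ran from 0.218 to 0.304 (Hk2 to Hk1, genotype), -0.066 to 0.177 (Pfkp to Pfkl, genotype) and -0.418 to -0.175 (Pfkp to Pfkl, irradiation). The -0.175 is the difference without replicate 1 of untreated Bub1KO. The 3 libraries a group limit the precision of every value.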
